A study of Mus musculus with 8 samples.

Results

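The kinases and RNA-binding proteins that set which exons a cell splices were followed across sorted Ripk1-proficient and Ripk1-deficient Treg cells. The set holds 41 mouse genes out of 42748 genes in the count table, namely 4 CLK kinases, 3 other SR protein kinases, 10 SR proteins, 5 SR-related regulators, 11 hnRNPs, 6 Luc7-like and RBM factors, and *Ptbp1* with *Mbnl1*. The genes were listed by name with the difference between the 2 cell fractions already known, so their levels and fold changes are a description. Counts of members past the threshold of a fit over all genes are given in the same sense, and no p-value is given for a single member. Every library came from CD4+ CD25+ cells of the pooled spleen and lymph nodes of chimeric *Ripk1* fl/fl *Foxp3* Cre/wt female mice, whose age the sources used here leave out. A Cre recombinase fused to yellow fluorescent protein (YFP) is expressed from the *Foxp3* locus on the X chromosome, and random X inactivation leaves each mouse with Treg cells that carry the active Cre allele and Treg cells that do not. FACS sorting split them into a YFP- fraction, labeled Ripk1+/+, and a YFP+ fraction, labeled Ripk1 -/-, with 4 bulk RNA libraries each, numbered 21, 46, 48 and 53 in both. Both fractions are *Ripk1* fl/fl, Cre acts only where *Foxp3* is expressed, and loss of *Ripk1* cannot be told apart from the knock-in at *Foxp3* in the YFP+ cells. No label says whether the libraries of a fraction came from separate mice, so any p-value measures only the spread between libraries. Nor do the labels say whether a YFP- and a YFP+ library of the same number came from the same mouse.

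SR proteins bind short enhancer sequences in exons through their RNA recognition motifs and recruit the splicing machinery through a tail rich in serine and arginine. SRPK kinases phosphorylate that tail in the cytoplasm for import into the nucleus, and CLK kinases phosphorylate it further inside the nucleus, which releases SR proteins from nuclear speckles to sites of splicing. hnRNPs often oppose SR proteins by masking splice sites or by looping exons out. In T cells this balance is known for the variable exons of CD45, which hnRNPLL helps to skip after activation. Many of these genes adjust their own output by an exon that brings in a stop codon or by keeping an intron in the transcript, and in mouse cells part of the *Clk1* and *Clk4* transcripts is known to wait in the nucleus with introns retained. GENCODE M21 lists a retained-intron transcript for 37 of the 41 genes (90.2%) against 58.2% of 12338 protein-coding genes tested, and a transcript marked for nonsense-mediated decay for 35 of them (85.4%) against 28.9%. The 41 genes also have more annotated transcripts, with a median of 11 against 5. Counts per gene add all of these transcripts together, so no value here separates productive from unproductive forms.

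On GRCm38, by GENCODE M21, *Clk1* (ENSMUSG00000026034) spans chr1:58410189-58424066 on the minus strand, *Clk4* (ENSMUSG00000020385) chr11:51261730-51281766 on the plus strand, *Srsf5* (ENSMUSG00000021134) chr12:80945504-80950507 on the plus strand, *Srsf7* (ENSMUSG00000024097) chr17:80200080-80207307 on the minus strand and *Tra2a* (ENSMUSG00000029817) chr6:49243924-49264033 on the minus strand. Upstream sequences are shown for 4 of the 5 members with the lowest log2 fold changes without the YFP+ library 21. Each run is 67 bases, 5′ to 3′ on the strand of the gene, ending at the base before the annotated RefSeq start on GRCm38.p6. Capitals mark TGACG or its reverse complement CGTCA, the core of the cAMP response element (CRE), TGACGTCA. Matches to the other motifs searched, given below, are not marked in these runs. The windows are chr11:51263047-51263113 on the plus strand for *Clk4*, chr12:80945432-80945498 on the plus strand for *Srsf5*, chr17:80207306-80207372 on the minus strand for *Srsf7* and chr6:49264053-49264119 on the minus strand for *Tra2a*. The RefSeq start of *Clk4* lies inside the longer GENCODE span given above, so its window is upstream of that start and not of the whole span.
Clk4: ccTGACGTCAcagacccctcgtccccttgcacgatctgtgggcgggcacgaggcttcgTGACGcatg
Srsf5: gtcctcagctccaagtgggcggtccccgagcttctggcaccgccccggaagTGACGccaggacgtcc
Srsf7: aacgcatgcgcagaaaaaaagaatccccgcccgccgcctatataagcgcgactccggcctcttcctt
Tra2a: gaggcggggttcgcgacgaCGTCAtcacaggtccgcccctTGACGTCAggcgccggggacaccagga

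Counting TGACG and CGTCA on the printed strand, overlaps included, the core stood 3 times before *Clk4*, 1 time before *Srsf5*, 3 times before *Tra2a* and 0 times before *Srsf7* in these windows. A full TGACGTCA counts as 2 of these, since both letter strings overlap in it. The full TGACGTCA, which contains the core, was found in the *Clk4* and *Tra2a* promoters, 2 of 38 members with an entry (5.26%). Among all 27025 promoters of the same length, 250 bases before to 50 after the start and both strands read, 2.03% held it, and 3.42% of those of the tested genes did. The core TGACG alone was present in 22 of the 38 (57.9%), against 23.1% of all promoters and 34.1% of those of the tested genes. The GC box GGGCGG was found in 27 of the 38 (71.1%) against 65.0% of the tested genes, and CCAAT in 22 (57.9%) against 42.9%. These are matches of letters and not binding sites. In all, 9 motifs were searched on both strands. The other 5 were the ETS core CCGGAAG in 7 of the 38 (18.4%) against 19.6% of the tested genes, the TATA box TATAAA in 6 (15.8%) against 9.06%, the E-box CACGTG in 6 (15.8%) against 11.2%, the heat shock element core GAANNTTC in 5 (13.2%) against 7.41% and the NRF1 core GCGCATGC in 4 (10.5%) against 5.85%.

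The YFP- libraries held 43737313 to 70782679 counts and the YFP+ libraries 29719251 to 55371610, so that 3 counts equal 0.037 to 0.062 CPM and 0.058 to 0.14 CPM. CPM here is the reads of a gene relative to the TMM-scaled size of its library. The YFP+ library 21 stood apart. It had the fewest counts, the lowest scaling factor (0.711), 9571 genes with at least 10 counts where the other 7 libraries had 13047 to 16558, and a correlation of at most 0.652 with any other library, where each of the others reached at least 0.866. For members, a log2 fold change that turned or moved by over 1.5 times without it is therefore given both ways. *Ripk1* overlapped between the fractions, at 20.5 to 44.2 CPM in YFP- cells and 15.2 to 28.7 CPM in YFP+ cells, and a count over all its exons does not check the deletion of a floxed part. Of the 7 T and Treg cell markers (*Cd3e*, *Cd3d*, *Cd4*, *Il2ra*, *Foxp3*, *Ikzf2* and *Ctla4*), the summed level ranged over 3670 to 3992 CPM in YFP- cells against 2998 to 4296 CPM in YFP+ cells. *Ctla4* was called lower within that list, at 349 to 423 CPM in YFP- cells against 121 to 193 CPM in YFP+ cells (log2 fold change -1.26 ± 0.20 SE, edgeR adjusted p = 0.037). *Foxp3* was listed at 0 in all 8 libraries, but 0% of its annotated span is free of other genes, so its level cannot be read from this table. In such bulk samples fewer cells of a type and less RNA per cell cannot be told apart.

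Markers of several other cell types moved with the fractions. B cell markers (8 genes, *Ms4a1* at 0 in every library) summed to 81.4 to 108 CPM in YFP- cells and to 814, 531, 2051 and 139 CPM in the YFP+ libraries 21, 46, 48 and 53. Macrophage and monocyte markers (8 genes) summed to 9.46 to 18.9 CPM against 60.1, 70.9, 506 and 46.9 CPM, and erythroid markers (5 genes, *Alas2* at 0) to 44.4 to 175 CPM against 164, 155, 2474 and 142 CPM. The YFP+ library 48 was thus the highest in all 3 lists, library 53 was the lowest of the YFP+ libraries, and among these 3 only the erythroid ranges overlapped. CD8 and NK cell markers (5 genes) summed to 45.97 to 66.2 CPM in YFP- cells and to 98.4, 71.5, 171 and 97.7 CPM in YFP+ cells, without overlap. Neutrophil markers (5 genes, *Mpo* at 0) reached at most 5.89 CPM except for 57.0 CPM in the YFP+ library 48. Dendritic cell markers (5 genes) summed to 10.4 to 14.7 CPM in YFP- cells and to 1.42, 12.2, 37.3 and 5.82 CPM in YFP+ cells, and stroma and endothelium markers (5 genes) to 294 to 329 CPM against 271 to 348 CPM, both with overlap. These YFP- sums came mostly from *Zbtb46* (mean 11.2 CPM) and *Pecam1* (mean 317 CPM). In the YFP+ library 48, *Siglech*, *Flt3*, *Xcr1*, *Col1a1* and *Col1a2* reached 12.7, 7.16, 6.58, 11.5 and 13.8 CPM, against at most 1.67 CPM in any YFP- library. There *Itgax* and *Col3a1* stood at 0.33 and 1.98 CPM, *Zbtb46* and *Cdh5* lay within the YFP- range, and *Pecam1* lay below it. Immediate early and heat shock genes (10 genes) summed to 771 to 858 CPM against 392, 1027, 825 and 827 CPM. The part of any of these in the values below was not tested.

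Of the 41 members, 40 had enough reads for the edgeR quasi-likelihood fit over 15063 genes, and *Srsf2* had 0 counts in all 8 libraries. The median log2 fold change of YFP+ against YFP- cells was -0.19 over the 40 members, 26 below and 14 above 0, beside -0.02 over all genes tested. Without the YFP+ library 21 the member median was -0.35, with 32 below and 8 above 0, beside -0.01 over 15832 genes. After Benjamini-Hochberg adjustment over all genes at a threshold of 0.05, *Clk1* was the single member called, lower in YFP+ cells (1 of 40, or 2.5%), beside 0.836% of all genes called lower and 0.0332% called higher, or 0.87% in either direction. The *Clk1* call was lost when any of the 4 YFP- libraries or the YFP+ library 46 or 53 was left out, settings in which edgeR called 0 genes in all and 5 to 7 members had an unadjusted p under 0.05. With DESeq2 and all libraries 4 members were called, beside 7.27% of all genes. Leaving out the YFP+ library 21 instead brought 9 of 40 members past the threshold, all lower (22.5%), beside 3.97% of all genes called lower and 2.68% called higher, or 6.64% in either direction. These were *Clk1*, *Clk4*, *Srsf5*, *Srsf7*, *Tra2a*, *Srrm2*, *Son*, *Luc7l3* and *Rbm39*. Without both the YFP+ libraries 21 and 48, *Clk1*, *Clk4*, *Srsf5*, *Srsf7* and *Tra2a* were called (12.5%), beside 4.28% of genes called lower, 1.43% called higher and 5.71% in either direction. Without library 48 alone only *Clk1* was, beside 1.49% lower, 0.0456% higher and 1.54% in either direction. Because the choice of members used this contrast, nothing is read from these shares.

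The CPM ranges of the fractions did not overlap for 8 members lower in YFP+ cells, *Clk1*, *Clk2*, *Srsf3*, *Srsf5*, *Srsf7*, *Tra2a*, *Hnrnpa2b1* and *Hnrnpd* (8 of 40), beside 10.6% of all genes tested. *Hnrnpf* was the single member higher in every YFP+ library (2.5%), beside 7.83% of all genes. Without the YFP+ library 21, 18 members were lower without overlap and 1 was higher, beside 13.7% and 12.5% of genes. Without the YFP+ libraries 21 and 48 these numbers were 19 and 1, beside 20.1% and 16.5%. The map of 39 members shows each library against the YFP- mean.

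**Figure D1:**
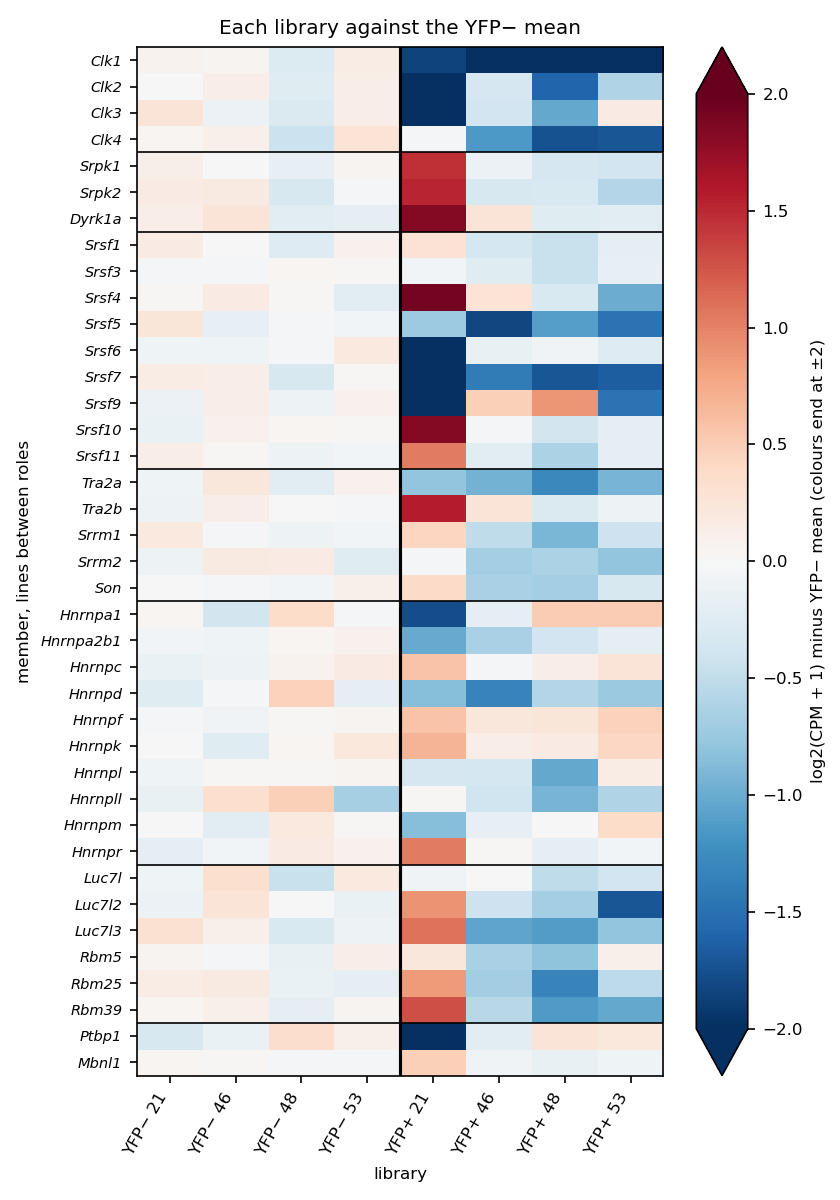
Level of 39 members (rows, grouped by role) in the 8 libraries (columns), as log2(CPM + 1) minus the mean of the YFP- libraries, with colors ending at 2 in either direction and *Srsf2* and *Hnrnpu* left out for lack of counts. *Clk1*, *Srsf5*, *Srsf7* and *Tra2a* are among the rows that are blue in all 4 YFP+ columns, as are *Clk2*, *Srsf3*, *Hnrnpa2b1* and *Hnrnpd*. The YFP+ library 21 is red in several rows where the other YFP+ libraries are blue, and it is deep blue in others, such as *Clk3*, *Srsf6* and *Ptbp1*.

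In YFP- cells the members spanned a wide range of abundance. In CPM per kilobase of exon (exon length from GENCODE M21, mean of 4 libraries), *Hnrnpf* led with 440.7, followed by *Hnrnpk* with 236. Behind them *Srsf5* with 137, *Srsf7* with 124, *Hnrnpa2b1* with 124, *Rbm39* with 123 and *Hnrnpc* with 110.4 lay close together. The ranges of these 5 over the libraries overlap, so their order is not resolved. Among the 7 kinases *Clk1* had the highest level at 48.7 CPM per kilobase, followed by *Clk4* at 27.7, *Srpk1* at 21.5, *Clk3* at 10.1, *Dyrk1a* at 10.1, *Srpk2* at 9.06 and *Clk2* at 3.43. The ranges of *Clk4* and *Srpk1* overlap, as do those of *Clk3*, *Dyrk1a* and *Srpk2*. *Hnrnpd*, at 3.17, and *Clk2* were the lowest of the members that could be read, and their ranges overlap. The exon length joins the exons of all annotated transcripts, those with a retained intron included. Levels set side by side for different genes therefore depend in part on their annotation.

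**Figure D2:**
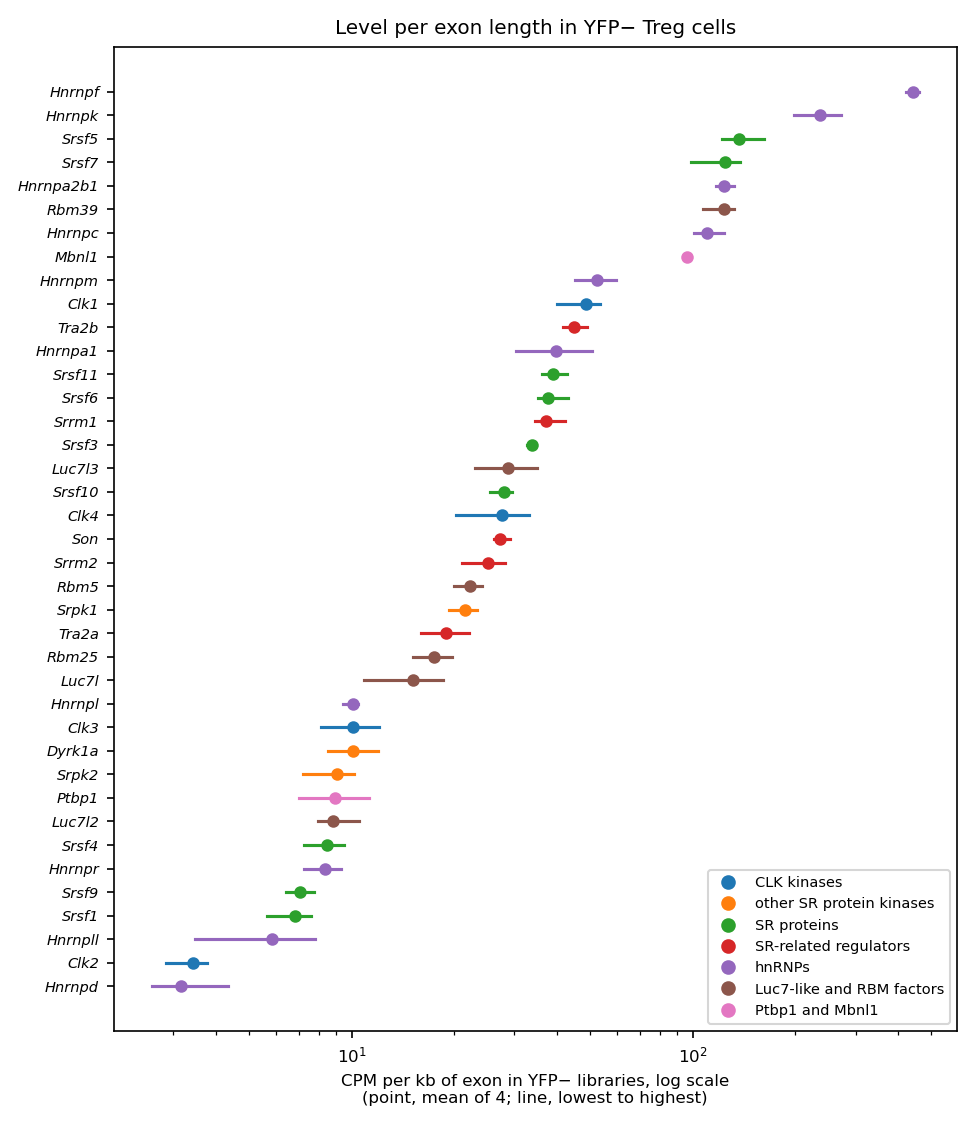
Mean level of 39 members in the 4 YFP- libraries on a log axis, in CPM per kilobase of exon, with lines from the lowest to the highest library and colors for the roles. *Hnrnpf* at 440.7 stands above all others, *Clk1* at 48.7 is the highest kinase, and *Clk2* and *Hnrnpd* lie at the bottom.

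Of the 4 CLK kinases, *Clk1* was called lower in YFP+ cells and the other 3 were not called with all libraries. The median log2 fold change over the 4 genes was -1.11 with all libraries and -1.19 without the YFP+ library 21. Libraries are given in the order 21, 46, 48 and 53 from here on. *Clk1*, the family member best known for phosphorylating SR proteins in nuclear speckles, measured 414, 409, 326 and 436 CPM in YFP- cells and 108, 97.9, 66.01 and 63.4 CPM in YFP+ cells. Every YFP+ library lay far below the lowest YFP- library, and the YFP+ libraries 48 and 53 were the lowest. The log2 fold change of *Clk1* was -2.24 ± 0.24 (SE), a 4.72-fold lower level, and it ranged from -2.55 to -2.08 over 21 other settings. *Clk4*, its closest relative, measured 162, 170.3, 118 and 192 CPM in YFP- cells and 156, 70.8, 46.7 and 47.7 CPM in YFP+ cells. Here the YFP+ libraries 46, 48 and 53 lay below every YFP- library, while library 21 lay within their range. The log2 fold change of *Clk4* was -0.9998 ± 0.42 with all libraries and -1.55 ± 0.23 without library 21.

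*Clk2* measured 17.9, 19.8, 15.1 and 19.9 CPM in YFP- cells and 0.38, 14.1, 5.39 and 11.5 CPM in YFP+ cells, lower in each YFP+ library than in any YFP- library. The YFP+ library 21 held only 8 *Clk2* counts, and without it the log2 fold change moved from -1.21 ± 0.86 to -0.83 ± 0.35. *Clk3* measured 101, 77.4, 68.9 and 92.8 CPM in YFP- cells and 0, 64.3, 41.02 and 94.9 CPM in YFP+ cells. Its YFP+ libraries were spread from 0 counts to a level inside the YFP- range, and the log2 fold change was -0.76 ± 1.30 with all libraries and -0.36 ± 0.28 without library 21. Summed, the 4 CLK genes reached 527 to 740.2 CPM in YFP- cells and 159 to 264 CPM in YFP+ cells, without overlap. As a share of that sum, which restates the values above because *Clk1* had the largest fall of the 4, *Clk1* made up 59.6%, 60.4%, 61.8% and 58.8% of CLK counts in YFP- cells and 40.9%, 39.6%, 41.5% and 29.2% in YFP+ cells. The widest of their 95% Wilson intervals, which cover counting error only, ran from 39.7% to 42.2% in the YFP+ library 21.

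**Figure D3:**
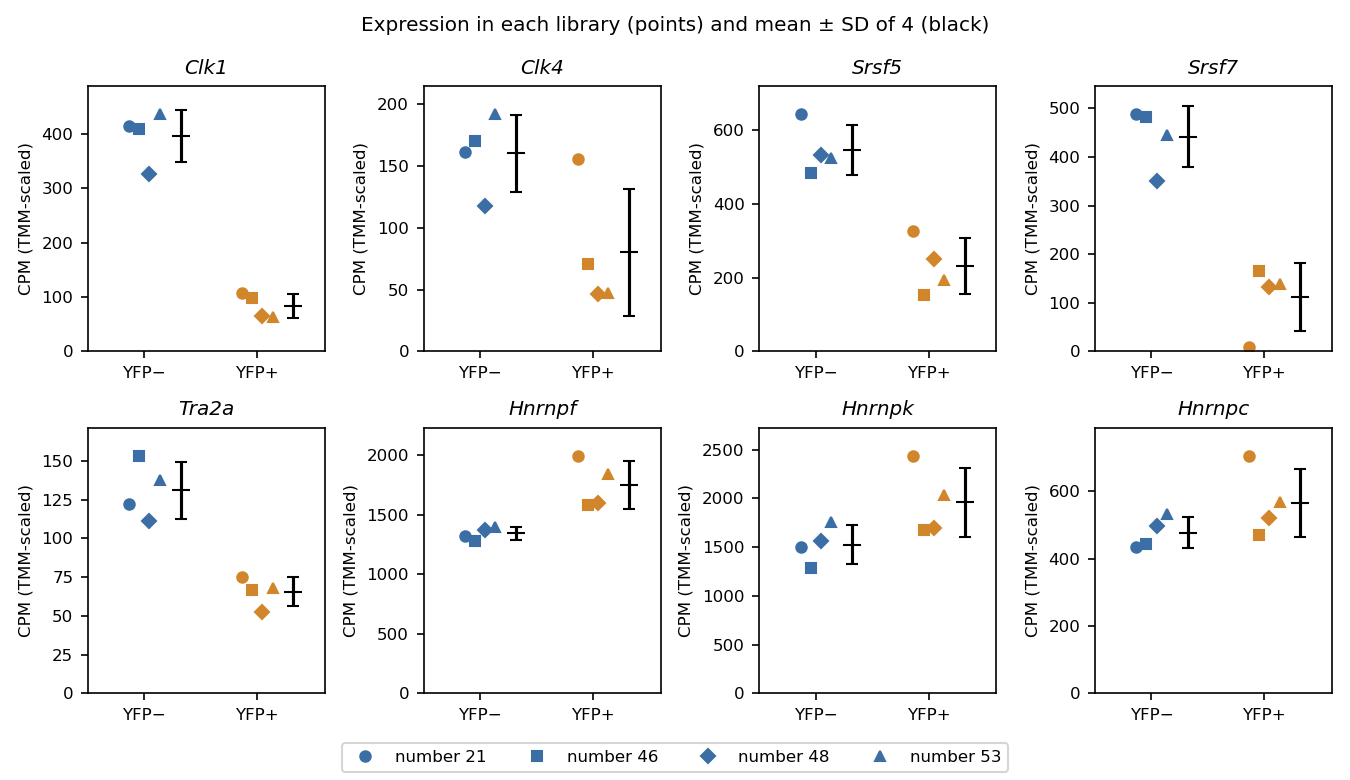
CPM of 8 members in each of the 4 YFP- (blue) and 4 YFP+ (orange) libraries, with symbols for the library number and the mean ± SD (n = 4) in black. *Clk1*, *Srsf5*, *Srsf7* and *Tra2a* separate downward and *Hnrnpf* upward, while in *Clk4* the YFP+ library 21 lies among the YFP- libraries and *Hnrnpk* and *Hnrnpc* overlap.

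The other kinases of SR proteins all had log2 fold changes above 0 with all libraries and below 0 without the YFP+ library 21. *Srpk1* and *Srpk2* encode the kinases that load phosphate onto SR proteins in the cytoplasm, and *Dyrk1a* encodes a nuclear kinase that also phosphorylates splicing factors. *Srpk2* measured 139, 141, 100.1 and 123 CPM in YFP- cells and 361, 100.3, 101 and 82.9 CPM in YFP+ cells. *Dyrk1a* measured 90.4, 98.5, 70.4 and 72.7 CPM in YFP- cells and 297, 98.6, 69.6 and 71.01 CPM in YFP+ cells. In both, the YFP+ library 21 was far above all other libraries and the remaining YFP+ libraries lay within or near the YFP- range. For *Srpk2* the log2 fold change was 0.36 ± 0.49 with all libraries and -0.42 ± 0.16 without library 21, and that of *Dyrk1a* was 0.69 ± 0.49 and -0.07 ± 0.19. *Srpk1* went from 0.39 ± 0.43 to -0.28 ± 0.11. The sign of all 3 thus changed when a single library was left out, and for *Dyrk1a* the value without it was smaller than its SE. The sign also depended on the scaling for the SRPK genes. With total counts in place of TMM factors both were below 0 with all libraries.

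Among the SR proteins, *Srsf7* and *Srsf5* had the lowest log2 fold changes. *Srsf5* encodes SRp40, an SR protein with a pair of RNA recognition motifs, and it measured 644, 485, 533 and 524 CPM in YFP- cells and 327, 153, 252 and 195 CPM in YFP+ cells. The fractions did not overlap, at a log2 fold change of -1.24 ± 0.25 with all libraries and -1.45 ± 0.19 without library 21. *Srsf7*, which carries a zinc knuckle and serves as an adaptor for mRNA export, measured 487, 482, 351 and 445 CPM in YFP- cells and 9.52, 165, 133 and 139 CPM in YFP+ cells. The YFP+ library 21 had 201 *Srsf7* counts, and the other YFP+ libraries were close to each other and below all YFP- libraries. The log2 fold change was -1.98 ± 0.70 with all libraries, and it was smaller with a much smaller error, -1.61 ± 0.16, without library 21.

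*Srsf3*, the smallest SR protein and likewise an export adaptor, measured 262, 258, 275 and 271 CPM in YFP- cells and 258, 226, 195 and 237 CPM in YFP+ cells. Its groups did not overlap, yet the highest YFP+ library lay just below the lowest YFP- library and the log2 fold change was only -0.22 ± 0.15. *Srsf4* measured 30.7, 33.8, 30.4 and 25.8 CPM in YFP- cells and 115, 36.4, 24.1 and 14.5 CPM in YFP+ cells, high in the YFP+ library 21 and overlapping elsewhere, and its log2 fold change went from 0.66 ± 0.62 to -0.28 ± 0.31 without that library. Only 57.0% of the *Srsf4* exon length is free of other annotated genes, and the sources used here do not state how reads in shared stretches were counted. *Srsf1*, the founding SR protein, overlapped between the fractions, with 32.3 to 43.4 CPM in YFP- cells against 28.1 to 47.5 CPM in YFP+ cells. Its log2 fold change was -0.16 ± 0.30 with all libraries and -0.35 ± 0.16 without library 21. *Srsf10*, which represses splicing when it loses phosphate, and *Srsf11* were raised in the YFP+ library 21 alone, to 701 and 674 CPM where their YFP- libraries reached at most 207 and 360.5 CPM. In the other YFP+ libraries *Srsf11* lay at 210 to 285 CPM, below the lowest YFP- library at 305 CPM. Without library 21 the log2 fold change of *Srsf10* went from 0.63 ± 0.50 to -0.20 ± 0.12, and that of *Srsf11* from 0.14 ± 0.35 to -0.35 ± 0.13. *Srsf6* was nearly absent from that library at 0.24 CPM, against 151 to 207 CPM in all others, and *Srsf9* overlapped at 10.6 to 12.8 against 0.71 to 22.2 CPM. The log2 fold change of *Srsf6* was -0.58 ± 1.15 with all libraries and -0.17 ± 0.11 without library 21, and that of *Srsf9* was -0.11 ± 0.89 and 0.27 ± 0.55. *Srsf2* is fully covered by the annotated spans of *Mettl23* and *Mfsd11*. Of 1268 protein-coding genes covered in this way 86.9% were at 0 in all libraries, against 13.7% of 19295 genes with more than 50% of their span free, so a level of *Srsf2* cannot be read from the table.

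Shares of counts restate these values on another scale, since *Srsf5* and *Srsf7* are shown for their low fold changes in the same libraries. *Srsf5* and *Srsf7* together took 51.7%, 47.8%, 46.1% and 47.5% of all SR protein counts in YFP- cells and 15.8%, 25.2%, 32.4% and 27.1% in YFP+ cells. *Srsf7* took 65.0%, 65.1%, 56.1% and 62.1% of the counts of the pair *Srsf7* and *Srsf3* in YFP- cells and 3.56%, 42.2%, 40.5% and 36.9% in YFP+ cells. The sum of SR protein counts in the YFP+ library 21 also holds the raised *Srsf10* and *Srsf11*.

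**Figure D4:**
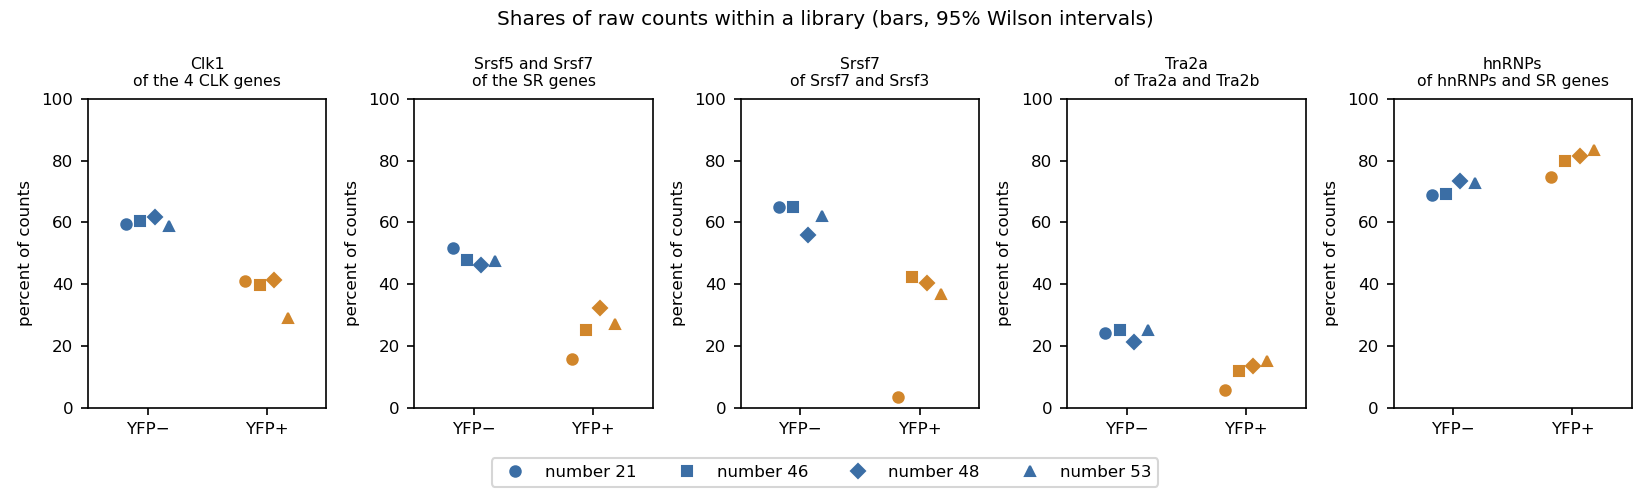
Percent of raw counts taken by a gene or group within each of the 8 libraries, with 95% Wilson intervals that are mostly smaller than the symbols. *Clk1* within the CLK genes, *Srsf5* and *Srsf7* within the SR genes, *Srsf7* against *Srsf3* and *Tra2a* against *Tra2b* are lower in all 4 YFP+ libraries, and the hnRNP share is higher in all 4.

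Among the SR-related regulators are *Tra2a* and its paralog *Tra2b*, which both activate exons rich in purines. *Tra2a* measured 122, 153, 111 and 138 CPM in YFP- cells and 74.97, 66.9, 52.5 and 68.1 CPM in YFP+ cells. All 4 YFP+ libraries were low and close together, library 21 included, and the log2 fold change of -0.997 ± 0.21 hardly moved without it (-1.08 ± 0.16). *Tra2b* measured 384, 453, 411 and 407 CPM in YFP- cells and 1233, 492, 337 and 384 CPM in YFP+ cells, and apart from the raised YFP+ library 21 its fractions overlapped. For *Tra2b* the log2 fold change was 0.56 ± 0.41 with all libraries and -0.04 ± 0.15 without library 21. *Tra2a* accordingly took 24.1%, 25.2%, 21.3% and 25.3% of the counts of the pair in YFP- cells and 5.73%, 11.97%, 13.5% and 15.1% in YFP+ cells.

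*Srrm2* and *Son* encode the large proteins that form the core of nuclear speckles. *Srrm2* measured 298, 362, 359 and 271 CPM in YFP- cells and 310.5, 199.8, 206 and 186 CPM in YFP+ cells. *Son* measured 406, 393, 389 and 433 CPM in YFP- cells and 527, 259, 252 and 323 CPM in YFP+ cells. In both, the YFP+ libraries 46, 48 and 53 lay below every YFP- library and library 21 did not. For *Srrm2* the log2 fold change was -0.52 ± 0.22 with all libraries and -0.72 ± 0.14 without library 21, and that of *Son* was -0.25 ± 0.25 and -0.55 ± 0.11. *Srrm1*, a speckle protein that bridges SR proteins on exons, had the same arrangement, with 252 to 309 CPM in YFP- cells, 143 to 203 CPM in 3 YFP+ libraries and 363 CPM in library 21. Its log2 fold change was -0.27 ± 0.29 with all libraries and -0.61 ± 0.14 without library 21.

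The hnRNPs lay on both sides of 0. Their median log2 fold change was -0.01 with 6 of 11 below 0, and 0.07 with 5 of 11 below 0 without the YFP+ library 21. Leaving out *Hnrnpu*, which had at most 32 counts in any library, these medians over 10 genes were -0.06 and -0.0047. The summed level of the 11 genes was 4578 to 5419 CPM in YFP- cells against 5012 to 6304 CPM in YFP+ cells. *Hnrnpa2b1*, an abundant RNA-binding protein of splicing and RNA sorting, measured 783, 771, 838 and 868 CPM in YFP- cells and 406, 521, 625 and 714 CPM in YFP+ cells, lower in all YFP+ libraries at a log2 fold change of -0.52 ± 0.19. *Hnrnpd*, also known as AUF1 and a binder of AU-rich elements that control mRNA decay, measured 19.1, 22.3, 31.8 and 20.04 CPM in YFP- cells and 12.2, 8.45, 14.9 and 13.3 CPM in YFP+ cells. It too was below the YFP- range in each YFP+ library, at -0.93 ± 0.38, although at a low level. *Hnrnpf*, which binds runs of G near splice sites, went the other way and measured 1319, 1284, 1369 and 1399.8 CPM in YFP- cells and 1989, 1578, 1595 and 1842 CPM in YFP+ cells. Every YFP+ library was above every YFP- library, with a log2 fold change of 0.38 ± 0.14 that stayed above 0 in all 21 other settings, from 0.08 to 0.43.

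*Hnrnpk*, a binder of C-rich RNA, ranged from 1282 to 1757 CPM in YFP- cells against 1672 to 2430 CPM in YFP+ cells, with overlap and log2 fold changes of 0.36 ± 0.18 with all libraries and 0.23 ± 0.12 without library 21. *Hnrnpc*, which binds runs of U, overlapped at 436 to 533 against 469.9 to 704 CPM, with log2 fold changes of 0.25 ± 0.17 and 0.12 ± 0.11. *Hnrnpll* had 40.7 to 91.0 CPM in YFP- cells against 33.8 to 66.6 CPM in YFP+ cells and *Hnrnpl*, its relative, 56.3 to 62.1 and 29.2 to 66.5 CPM, neither separating the fractions. *Hnrnpa1*, *Hnrnpm* and *Hnrnpr* overlapped too, with log2 fold changes of -0.01, -0.11 and 0.30 that turned to 0.29, 0.07 and -0.08 without library 21. *Hnrnpu*, at log2 fold changes of 0.30 and 0.66, is counted in the numbers of members above and below 0 but is too low to be read as a level. Set against the SR proteins, hnRNPs took 69.1%, 69.4%, 73.4% and 72.7% of the counts of both groups in YFP- cells and 74.7%, 79.9%, 81.6% and 83.4% in YFP+ cells, higher in every YFP+ library, with *Srsf5* and *Srsf7* among the SR counts. The plot of fold changes by role shows the hnRNPs on both sides of 0 and 6 of the 9 SR proteins tested below it, or 8 of 9 without library 21.

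**Figure D5:**
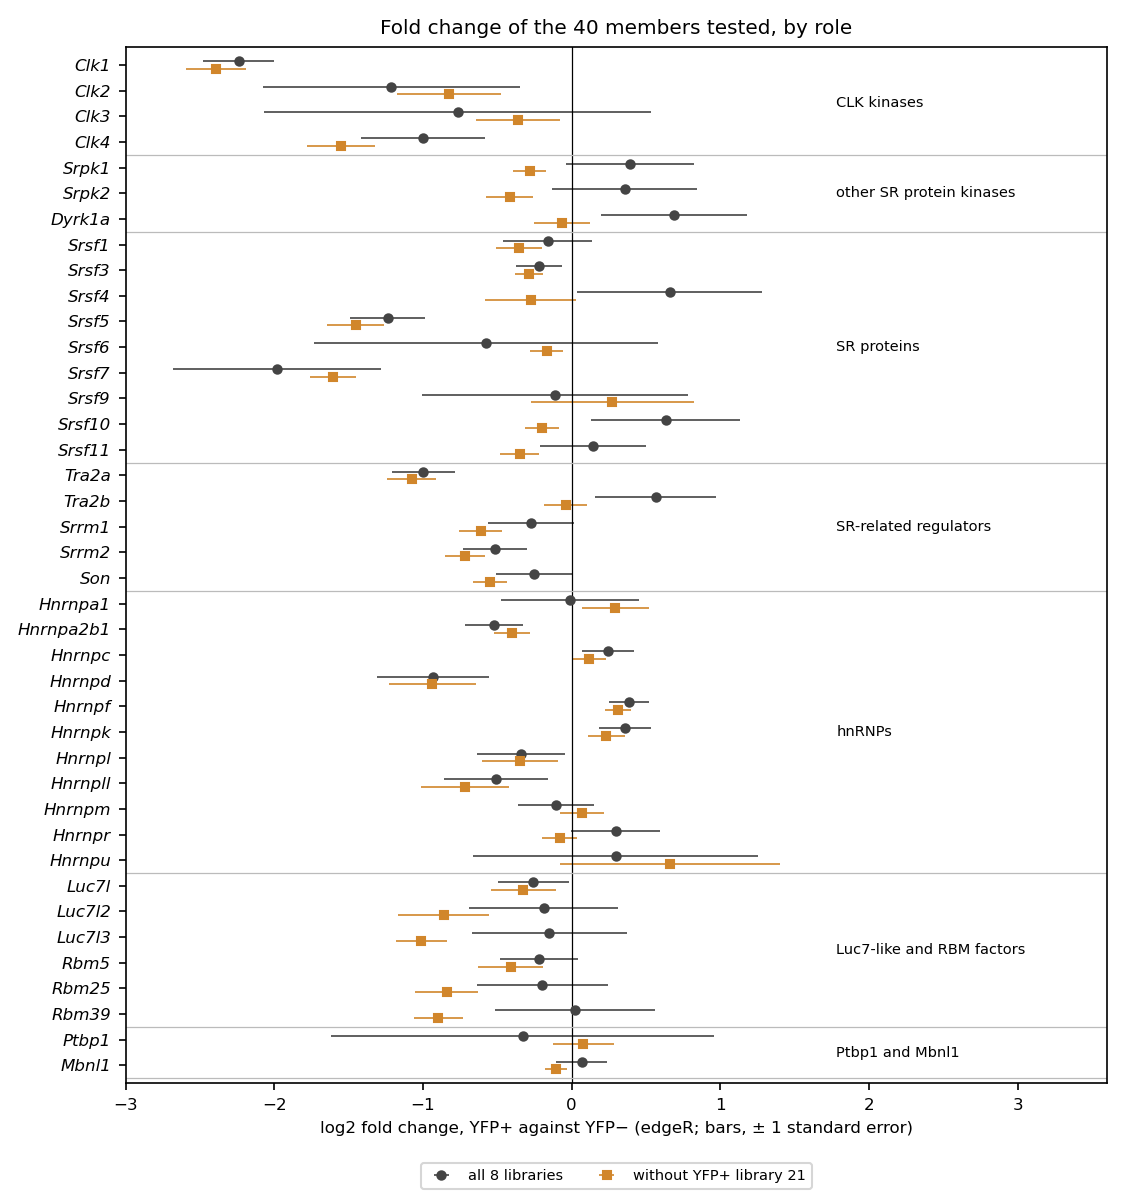
Log2 fold change (YFP+ against YFP-) of the 40 members tested, with bars of 1 SE, from all 8 libraries (gray circles) and without the YFP+ library 21 (orange squares). All 4 CLK kinases lie below 0 in both fits, hnRNPs lie on both sides, and the Luc7-like and RBM factors move from near 0 to between -1.01 and -0.33 without library 21.

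Luc7-like proteins belong to or associate with the U1 small nuclear ribonucleoprotein that reads 5′ splice sites, and the RBM factors work with it or with the 3′ splice site machinery. *Luc7l3* measured 255, 223, 167 and 193 CPM in YFP- cells and 441, 99.2, 95.3 and 119 CPM in YFP+ cells. *Rbm39*, a coactivator of splicing that resembles U2AF, measured 875, 919, 743 and 883 CPM in YFP- cells and 2091, 579.9, 388 and 417 CPM in YFP+ cells. The pattern was the same in both, low in the YFP+ libraries 46, 48 and 53 and highest of all libraries in the YFP+ library 21. The log2 fold change of *Luc7l3* was -0.15 ± 0.52 with all libraries and -1.01 ± 0.17 without library 21. That of *Rbm39* was 0.02 ± 0.54 and -0.90 ± 0.16. *Luc7l* measured 105, 139, 81.8 and 128 CPM in YFP- cells and 106, 111, 77.6 and 85.3 CPM in YFP+ cells, with overlap in all settings shown here. *Luc7l2*, *Rbm25* and *Rbm5* had log2 fold changes of -0.19, -0.20 and -0.22 with all libraries and of -0.86, -0.84 and -0.41 without library 21. The median of the 6 genes thus moved from -0.19 to -0.85.

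The remaining 2 members repress or activate exons by position. *Ptbp1*, which binds pyrimidine tracts, measured 33.3, 37.8, 53.2 and 45.1 CPM in YFP- cells and 0, 35.9, 50.1 and 48.6 CPM in YFP+ cells. The 0 in the YFP+ library 21 stands against a limit of 0.14 CPM for 3 counts, and the other libraries overlapped, with log2 fold changes of -0.33 ± 1.29 with all libraries and 0.08 ± 0.21 without it. Only 33.2% of the *Ptbp1* exon length is free of other annotated genes. *Mbnl1*, a muscleblind protein, measured 1851, 1832, 1758 and 1763 CPM in YFP- cells and 2502, 1715, 1626 and 1701 CPM in YFP+ cells. The YFP+ libraries 46, 48 and 53 lay slightly below the YFP- libraries and library 21 far above them, with log2 fold changes of 0.07 ± 0.17 with all libraries and -0.11 ± 0.07 without library 21.

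Other genes of the splicing pathway were grouped by function. Of 47 core spliceosome genes, 1 was lower and 0 were higher at the adjusted threshold. *Prpf38b*, a factor of spliceosome activation, was this gene, at 202 to 272 CPM in YFP- cells against 68.6 to 121 CPM in YFP+ cells (log2 fold change -1.30 ± 0.23 SE, edgeR adjusted p = 0.046). Of 64 other splicing regulators tested, 1 was lower and 0 were higher. *Pnisr*, which encodes an SR-like nuclear protein, was this gene, with a log2 fold change of -1.69 ± 0.23 (SE, edgeR adjusted p = 0.033). None of 14 genes of nonsense-mediated decay and the exon junction complex passed (0 of 14, and 0 at an unadjusted p under 0.05), nor did either of 2 nuclear-retained RNAs with enough reads.

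Without the YFP+ library 21, where 3.97% of all genes were called lower and 2.68% higher, 5 of the 47 core genes were lower and 0 higher, namely *Snrnp70*, *Sf3b1*, *Prpf38b*, *Ddx46* and *Xab2*. *Snrnp70*, the U1 protein that contacts SR proteins, measured 189 to 223 CPM in YFP- cells and 108 to 129 CPM in the 4 YFP+ libraries (without library 21, log2 fold change -0.90 ± 0.10 SE, edgeR adjusted p = 0.0096). Of the 64 other regulators 9 were lower, among them *Hnrnpdl*, *Hnrnph1* and *Hnrnph3*. These genes of the hnRNP family are not among the hnRNPs listed as members, so the hnRNP median, sum and share above leave them out. In the same list 1 gene was higher, the muscleblind gene *Mbnl3* (log2 fold change 0.84 ± 0.10 SE, edgeR adjusted p = 0.013). *Hnrnph1* measured 130.4 to 143 CPM in YFP- cells and 0.28, 22.7, 40.6 and 33.0 CPM in YFP+ cells, with a log2 fold change of -2.08 ± 0.21 (SE, edgeR adjusted p = 0.0077) without library 21. *Malat1*, such a retained RNA of nuclear speckles, had a log2 fold change of -0.42 in that setting (edgeR adjusted p = 0.040), where it was 0.18 with all libraries (edgeR adjusted p = 0.88), and was highest of all libraries in the YFP+ library 21 at 6834 CPM. *Upf3b*, a decay factor, was also lower (log2 fold change -2.16, edgeR adjusted p = 0.022). Over the 127 genes of these lists that were tested, 2 were called with all libraries and 17 without library 21, beside 0.87% and 6.64% of all genes.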

How the data were processed

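The authors deposited raw counts per Ensembl gene in a table of 8 libraries, not normalized, made from FACS-sorted cells with a low-input RNA kit. Per the submitters' processing notes, Trim Galore and STAR were used with the mm10 build. Not given in the sources used here were the program versions, how reads were counted and whether strand was used. Gene spans, exon lengths and transcript types were taken from GENCODE M21, which holds 42548 (99.5%) of the identifiers. Promoter sequences are from RefSeq (GRCm38.p6). The symbol *Srsf1* had 2 rows, and the row with counts was kept.

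The quasi-likelihood test of edgeR 4.0.16 (R 4.3.3) compared the fractions, with no other term, on TMM-scaled counts of the genes that filterByExpr kept (count minimum 10, total minimum 15). P-values were adjusted over all genes tested by Benjamini-Hochberg. An SE is the size of the log2 fold change over the root of the F statistic. CPM use TMM-scaled library sizes. The script was tested on simulated data. Other settings tried were the DESeq2 1.42.0 test, scaling by RLE or by the upper quartile, dropping the filter or asking for 5 CPM in 4 libraries, a robust dispersion fit, a block for the library number, and leaving out each library or each number. Leaving out the YFP+ libraries 21 and 48 together and using total counts without scaling factors were chosen after seeing the data.

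The members and gene lists were chosen with earlier results of these data known. Values in every library are given for the CLK genes, for the highest and lowest fold change within each role, for members past the threshold with all libraries or without the YFP+ library 21, and for members whose fractions do not overlap. In the other lists every gene past the threshold with all libraries is named, and those named for the fit without library 21 were chosen after their values were seen.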

Additional observations from a re-analysis of the deposited data

Results flagged for a closer look

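A single library far from the other 3 of its fraction, by Dixon's test at its 95% level, was found in 12 of 58 groups of values looked at. These groups were the 22 members whose values in every library are given above and the sums over roles, each in both fractions. Chance gives about 1 in 20 among unselected groups, but some of these genes were named for fold changes with or without the YFP+ library 21 and the sums contain the same genes, so 12 is not set against a chance count. In 11 of the 12 the library was YFP+ library 21, and in each of these it was the highest of its fraction. The genes were *Srpk2* at 361 CPM, *Dyrk1a* at 297 CPM, *Srrm2* at 310.5 CPM, *Luc7l3* at 441 CPM, *Rbm39* at 2091 CPM and *Mbnl1* at 2502 CPM. The sums over roles were 1394 CPM for the other SR protein kinases, 2132.5 CPM for SR proteins, 2509 CPM for SR-related regulators, 3782 CPM for Luc7-like and RBM factors and 2502 CPM for *Ptbp1* with *Mbnl1*. The remaining group was the sum of the SR-related regulators in YFP- cells, where library 46 stood at 1625 CPM and the others at 1510.3 to 1522 CPM.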

How the results depend on the processing

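With edgeR and all libraries, 1 member and 2 of the other splicing genes were called. DESeq2 called 4 members (*Clk1*, *Srsf5*, *Tra2a* and *Hnrnpd*) and 13 other splicing genes, among 1095 genes in all against 131. Leaving out a library or a number gave 0 to 9 members and 0 to 17 other splicing genes. Without the YFP+ libraries 21 and 48 the counts were 5 and 14 (5.71% of all genes called), and with total counts in place of scaling factors 3 and 6 (1.31%). RLE factors and robust dispersion left 1 other splicing gene each, and no filter and the stricter filter left 0 (edgeR, 19 and 21 at an unadjusted p under 0.05). Where leaving out libraries gave 0 members called, 3 to 7 had an unadjusted p under 0.05. The median log2 fold change of the members stayed below 0, from -0.53 with total counts to -0.12. Total counts moved the median of all genes by -0.26 and the library number as a block moved it by -0.30, and with total counts *Srpk1*, *Srpk2*, *Srsf11*, *Hnrnpc*, *Hnrnpr*, *Rbm39* and *Mbnl1* turned from above to below 0. Same-numbered libraries deviated together only weakly (correlations of 0.049, 0.068, 0.140 and 0.095 for 21, 46, 48 and 53), so the numbers were not taken as pairing, although each YFP- library correlated best with the YFP+ library of its own number. With the replicate block edgeR called 0 members and 0 other splicing genes (7 and 19 at an unadjusted p under 0.05), and the member median of -0.34 stood beside -0.32 over all genes. The cause of these changes was not tested. With 4 libraries per fraction and the YFP+ library 21 at 29719251 counts, errors were largest for members at or near 0 in that library, such as *Clk3*, *Ptbp1* and *Srsf6* (SE 1.30, 1.29 and 1.15).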
